A study of Homo sapiens with 96 samples.

Results

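A549 cells, a human lung adenocarcinoma line, were given an ethanol extract of Paeoniae Radix (PR, peony root as used in herbal medicine) at 100 µg/mL and compared with A549 cells given vehicle. The comparison was defined by the sample titles alone and holds 6 of the 96 libraries of the series, 3 of the medium dose of the ethanol extract and 3 of vehicle, out of 21 libraries in the first of 2 batches. That batch also held the ethanol extract at 20 and 500 µg/mL and a water extract at 20, 100 and 500 µg/mL, with 3 libraries in each group. The second batch, which tested 8 single ingredients of the root, was not used here. All groups were the same cell line with no genetic change named. How long the cells were exposed, and to which vehicle, is not stated in the sources used here. Whether the 3 libraries of a group are separate cultures is not stated either, so p-values reflect the spread among these libraries alone and that spread may be technical. Since the series is titled for the Aurora B pathway, the genes of that pathway are described as well.

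Proteins that enter the endoplasmic reticulum (ER) are folded there by chaperones such as HSPA5 (BiP), HSP90B1 (GRP94) and calreticulin (CALR), and by disulfide isomerases such as P4HB and PDIA4. When unfolded protein builds up, the sensors IRE1 (ERN1), PERK (EIF2AK3) and ATF6 start the unfolded protein response, in which ATF6 and the spliced form of XBP1 act on promoters that carry the ER stress response element, while PERK leads to translation of ATF4, the factor that drives asparagine synthetase (ASNS) and amino acid supply through another element. Transforming growth factor beta (TGF-beta), signalling through SMAD proteins, is a strong inducer of collagens and other matrix genes in A549 cells, a common model of the epithelial-mesenchymal transition.

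The promoters of 5 genes of ER folding and degradation and of ASNS are printed because they carry these elements. They were chosen after the values had been seen. Each window runs from 250 bases before to 50 bases after the start of the gene, read 5′ to 3′ on the gene's strand from RefSeq promoters of build GRCh38.p14. The windows are HSPA5 at chr9:125241294-125241593 (minus strand), HSP90B1 at chr12:103930160-103930459 (plus), CALR at chr19:12938359-12938658 (plus), HYOU1 at chr11:119057156-119057455 (minus), HERPUD1 at chr16:56931892-56932191 (plus) and ASNS at chr7:97872359-97872658 (minus). Capitals mark the fixed letters of the ER stress response element (ERSE, CCAAT and CCACG with 9 bases between them) in HSPA5, HSP90B1 and CALR, of ERSE-II (ATTGG and CCACG with 1 base between them) in HYOU1 and HERPUD1, and of the C/EBP-ATF response element (CARE, TGATGNAA) in HERPUD1 and ASNS, on either strand.
HSPA5: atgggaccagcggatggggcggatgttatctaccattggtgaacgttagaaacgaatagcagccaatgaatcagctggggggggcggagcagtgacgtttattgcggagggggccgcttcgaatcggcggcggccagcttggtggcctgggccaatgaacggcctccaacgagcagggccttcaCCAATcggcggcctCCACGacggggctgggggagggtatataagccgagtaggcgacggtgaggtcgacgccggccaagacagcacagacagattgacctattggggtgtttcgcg
HSP90B1: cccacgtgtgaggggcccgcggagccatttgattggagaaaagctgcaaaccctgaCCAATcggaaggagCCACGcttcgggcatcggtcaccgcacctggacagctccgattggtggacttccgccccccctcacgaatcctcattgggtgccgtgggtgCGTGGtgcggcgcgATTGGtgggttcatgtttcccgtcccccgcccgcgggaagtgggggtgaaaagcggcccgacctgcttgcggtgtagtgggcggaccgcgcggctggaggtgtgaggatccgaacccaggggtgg
CALR: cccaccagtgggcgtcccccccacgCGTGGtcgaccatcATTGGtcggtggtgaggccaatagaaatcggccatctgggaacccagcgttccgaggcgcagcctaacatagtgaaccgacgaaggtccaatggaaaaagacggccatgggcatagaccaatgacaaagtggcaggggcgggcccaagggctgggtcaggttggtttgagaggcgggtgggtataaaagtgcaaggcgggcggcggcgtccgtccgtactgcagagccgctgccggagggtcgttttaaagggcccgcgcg
HYOU1: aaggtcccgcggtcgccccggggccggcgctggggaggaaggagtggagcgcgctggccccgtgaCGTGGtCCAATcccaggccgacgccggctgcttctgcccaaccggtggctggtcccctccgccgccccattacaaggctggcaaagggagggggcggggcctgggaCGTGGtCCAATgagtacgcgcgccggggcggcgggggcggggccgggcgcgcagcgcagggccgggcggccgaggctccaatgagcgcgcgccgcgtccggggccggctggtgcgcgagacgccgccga
HERPUD1: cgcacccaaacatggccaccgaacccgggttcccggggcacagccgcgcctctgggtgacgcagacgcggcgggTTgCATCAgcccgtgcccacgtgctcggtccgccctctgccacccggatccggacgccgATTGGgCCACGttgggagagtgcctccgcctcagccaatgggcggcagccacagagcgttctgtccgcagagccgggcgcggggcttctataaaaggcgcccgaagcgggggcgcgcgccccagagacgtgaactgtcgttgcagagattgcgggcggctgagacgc
ASNS: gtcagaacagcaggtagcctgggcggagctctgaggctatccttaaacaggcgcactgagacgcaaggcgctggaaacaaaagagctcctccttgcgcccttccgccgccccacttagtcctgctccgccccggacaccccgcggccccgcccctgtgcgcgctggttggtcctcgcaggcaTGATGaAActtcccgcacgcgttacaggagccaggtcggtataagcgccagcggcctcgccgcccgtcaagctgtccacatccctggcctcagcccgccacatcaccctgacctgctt
The ERSE was found in 6 of the 25 ER chaperone promoters that could be matched (24%) and in 22 of 27305 promoters of all genes (0.0806%). HSP90B1 carried it on both strands, beginning 194 and 89 bases before the start, and the others were HSPA5, CALR, CANX, CRELD2 and ERO1B. ERSE-II was found in 2 of the 25 (8%), HYOU1 with 2 copies and SDF2L1 with 1, and in 15 promoters of all genes (0.0549%). The CARE was common, in 1003 promoters of all genes (3.67%). Its holders in the gene lists included AARS1 and MARS1, which rose against vehicle, and TARS1 and BCL2A1, which fell. XBP1, outside the chaperone list, also carried the ERSE, and its change from vehicle did not pass. These are matches of letters, not measured binding.

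Totals in the 6 libraries were 23.66, 28.14 and 26.02 M expected counts with ethanol extract 100, and 26.92, 20.51 and 23.9 M with vehicle. The share of counts on mitochondrially encoded genes was 15.62, 16.08 and 17.22% with ethanol extract 100, against 20.48, 16.9 and 22.06% with vehicle, and all other treated libraries of the batch had between 14.24 and 18.61%. The second vehicle library lies inside the treated range and the others above it. Normalisation factors (trimmed mean of M-values, TMM) of the vehicle libraries were 0.911 to 0.973, against 0.966 to 1.036 in treated ones. In these bulk libraries, fewer cells making a transcript and less of it per cell cannot be told apart. Each gene group is given against vehicle and also against the water extract at the same dose and the ethanol extract at the next lower dose. All of these comparisons use the same 3 libraries of ethanol extract 100, so their results are not independent of each other. Keratin transcripts of the epithelial line were abundant (KRT8 2067 to 2228 with ethanol extract 100 and 2148 to 2313 CPM with vehicle, CPM being counts scaled to 1e6 of TMM-adjusted library size), EPCAM was low, and NKX2-1, SFTPB, SFTPC, SFTPA1 and SCGB1A1, which mark differentiated lung epithelium, did not pass the filter on low counts. Of 9 markers of other cell types only CD68, a lysosomal protein of macrophages that is also made elsewhere, passed it, with 9.35 to 11.2 CPM against 9.23 to 13.5 CPM.

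Many transcripts differed by small amounts between ethanol extract 100 and vehicle. Of 16854 genes tested, 2947 (17.5%) passed an adjusted p of 0.05 against vehicle by edgeR's quasi-likelihood test with Benjamini-Hochberg adjustment. They were 1392 higher (8.26%) and 1555 lower (9.23%), and 103 genes (0.611%) also differed at least 2-fold. Against the water extract at the same dose 299 genes passed (1.77%), 156 higher and 143 lower, 10 of them at least 2-fold (0.0593%). Set beside the ethanol extract at 20 µg/mL, 301 passed (1.79%), 141 higher and 160 lower, 6 of them at least 2-fold (0.0356%). Measured from vehicle, the ethanol extract at 20 µg/mL differed in 1255 genes (7.45%) and the water extract in 1602 at 20 µg/mL (9.51%) and 2116 at 100 µg/mL (12.6%), comparisons that share the vehicle libraries. The median log2 change over all genes was 0.00 in each of the comparisons of ethanol extract 100.

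**Figure D1:**
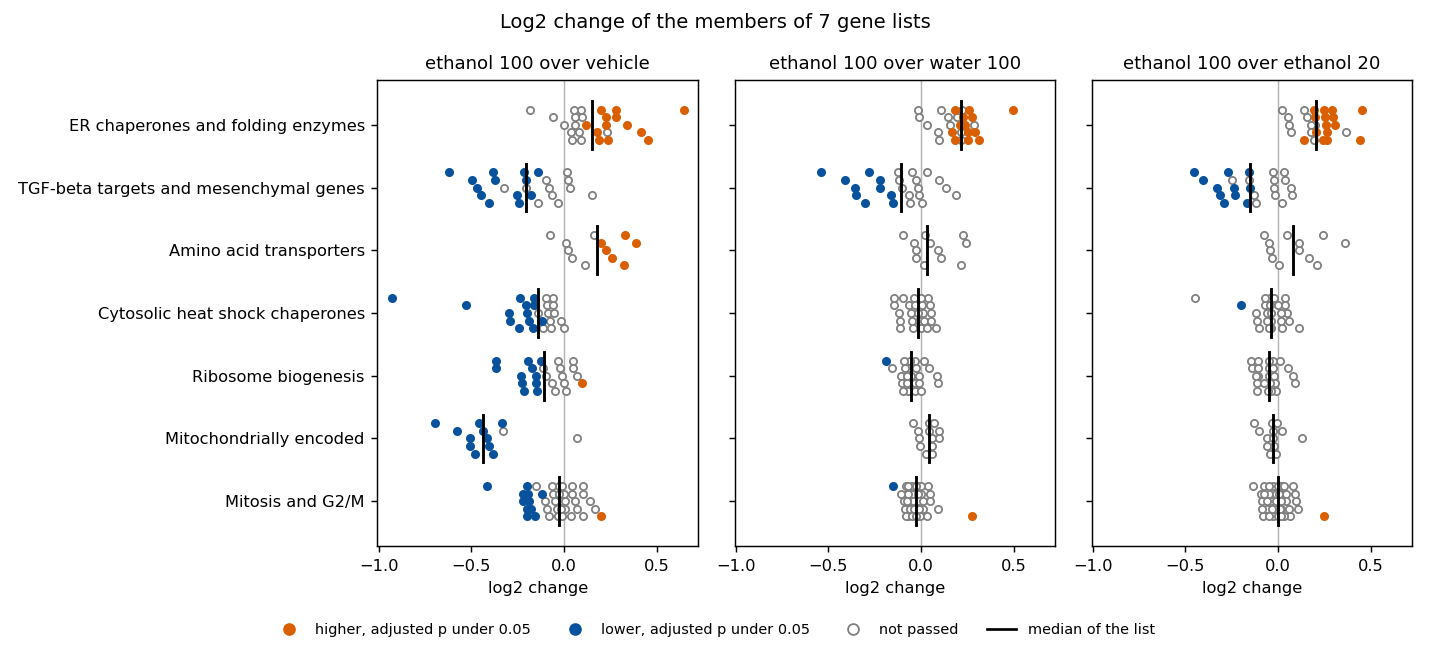
Log2 changes of the tested members of 7 gene lists, one point per gene, with ethanol extract 100 over vehicle (left), over water extract 100 (middle) and over ethanol extract 20 (right); filled points passed an adjusted p of 0.05 and the black line is the median of the list. ER chaperones lie to the right and TGF-beta targets to the left in all 3 panels, with medians of 0.15, 0.21 and 0.20 and of -0.21, -0.11 and -0.15, whereas the medians were -0.14, -0.02 and -0.04 for heat shock chaperones, -0.11, -0.06 and -0.05 for ribosome biogenesis and -0.44, 0.04 and -0.03 for mitochondrially encoded genes.

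Chaperones and folding enzymes of the ER were higher with ethanol extract 100 in each comparison. Against vehicle, 13 of the 26 listed genes rose, 0 fell and 13 did not pass, with a median log2 change of 0.15, beside 8.26% of all genes that rose and 9.23% that fell. Compared with water extract 100, where 0.926% of all genes were higher, 13 were higher and 0 lower (median 0.21), and against ethanol extract 20, where 0.837% were higher, 15 were higher and 0 lower (median 0.20). When 1 of the 6 compared libraries was left out, 9 to 15 members rose against vehicle, 8 to 11 against water extract 100 and 10 to 13 against ethanol extract 20. The lowest of these, 8, was without water extract 100 replicate 3, and 10 were left against ethanol extract 20 without ethanol extract 100 replicate 1. A fit of only the 6 libraries compared gave 9 against ethanol extract 20. With vehicle replicate 1 left out, 1 member also fell against vehicle.

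PDIA4, a disulfide isomerase, had 376, 382 and 384 CPM with ethanol extract 100, against 305, 307 and 290.3 CPM with vehicle. The 3 treated libraries lay within a few CPM of each other and above all 3 vehicle libraries. The log2 change was 0.34 ± 0.03 (standard error, as for all log2 changes below; adjusted p = 4.82e-07). It was 304 to 313 CPM with ethanol extract 20 and 303 to 322 CPM with water extract 100, levels close to vehicle, giving log2 differences of 0.30 ± 0.03 and 0.29 ± 0.03. P4HB, the archetypal protein disulfide isomerase, had 728, 726 and 731 CPM against 592, 613 and 595 CPM with vehicle, without overlap (log2 change 0.28 ± 0.03, adjusted p = 2.53e-06). Its difference was 0.25 ± 0.03 from water extract 100 and 0.26 ± 0.03 from ethanol extract 20. PPIB, the ER cyclophilin, had 299.5, 310.4 and 289 CPM against 253, 244 and 265 CPM, again without overlap, and rose by 0.24 ± 0.04, with 0.24 ± 0.04 against water extract 100 and 0.26 ± 0.04 against ethanol extract 20. All these calls of PDIA4, P4HB and PPIB held when any 1 library was left out.

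The genes whose promoters are printed above behaved as follows. HSP90B1, the ER member of the HSP90 family, had 1188, 1189 and 1138 CPM with ethanol extract 100, against 987, 1069 and 949.7 CPM with vehicle. The groups did not overlap, and the second vehicle library was the highest of its group. The log2 change was 0.23 ± 0.04 (adjusted p = 0.000224), with 0.26 ± 0.04 against water extract 100 and 0.29 ± 0.04 against ethanol extract 20. HYOU1, an ER member of the HSP70 superfamily, had 132, 132 and 134 CPM against 111, 121 and 118 CPM with vehicle and rose by 0.19 ± 0.04 (adjusted p = 0.00358), without overlap, and it was higher by 0.25 ± 0.04 than with water extract 100 and by 0.26 ± 0.04 than with ethanol extract 20. HSPA5 itself had 745, 722 and 721 CPM against 659, 738 and 652 CPM with vehicle, where the second vehicle library reached into the treated range. Its log2 change of 0.09 ± 0.04 did not pass (adjusted p = 0.0953), nor did its difference of 0.14 ± 0.04 from water extract 100 (adjusted p = 0.0557). Against ethanol extract 20, with 629 to 644 CPM, the difference of 0.19 ± 0.04 passed (adjusted p = 0.00836), but not without ethanol extract 100 replicate 1 (adjusted p = 0.062). CALR had 661, 700.4 and 685 CPM against 612, 631 and 642 CPM with vehicle, a log2 change of 0.12 ± 0.04 whose adjusted p of 0.0235 was exceeded, up to 0.11, without ethanol extract 100 replicate 2 or 3 or vehicle replicate 1. It stood clearer of water extract 100 (0.27 ± 0.04) and ethanol extract 20 (0.25 ± 0.04).

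The co-chaperones of HSPA5 moved by more. DNAJB9 (ERdj4), which assists HSPA5 and is a known target of XBP1, had 12.4, 11.5 and 12.4 CPM with ethanol extract 100, against 8.201, 6.52 and 8.36 CPM with vehicle. The groups did not overlap, and the log2 change was 0.64 ± 0.11 (adjusted p = 0.000224). The differences of 0.49 ± 0.10 from water extract 100 and 0.45 ± 0.10 from ethanol extract 20 did not pass without ethanol extract 100 replicate 1 or 3, nor without water extract 100 replicate 3 or ethanol extract 20 replicate 2 or 3 (adjusted p up to 0.11 and 0.13). DNAJC3 (p58IPK), also an HSPA5 co-chaperone, had 59.7, 49.5 and 54.1 CPM against 40.7, 41.1 and 37.4 CPM, the first treated library being the highest, and rose by 0.45 ± 0.06 (adjusted p = 2.94e-05). Its differences of 0.31 ± 0.06 and 0.29 ± 0.06 from water extract 100 and ethanol extract 20 were lost without ethanol extract 100 replicate 1 (adjusted p = 0.053 and 0.081), and that from ethanol extract 20 also without its replicate 2 or 3.

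Of 10 sensors and factors of the unfolded protein response, 4 rose against vehicle and 0 fell, beside 8.26% and 9.23% of all genes: ERN1 (IRE1, log2 change 0.24 ± 0.06), EIF2AK3 (PERK, 0.20 ± 0.06), CREB3, a membrane-bound factor of the ER (0.23 ± 0.06), and MBTPS1, the protease that first cuts ATF6 (0.11 ± 0.03). Each of these 4 calls was lost when 1 library was left out: ERN1 without ethanol extract 100 replicate 3, EIF2AK3 without ethanol extract 100 replicate 1 or vehicle replicate 1, CREB3 without ethanol extract 100 replicate 2 and MBTPS1 without ethanol extract 100 replicate 1. With the offset for transcript length and GC content described below, ERN1 did not pass either (adjusted p = 0.071). XBP1 had 58.6, 54.9 and 57.1 CPM against 56.7, 59.4 and 57.6 CPM with vehicle, overlapping groups and a log2 change of -0.03 ± 0.04, and was higher than with water extract 100 by 0.18 ± 0.04, a call lost with any of the 6 libraries left out. ATF4 had 231, 250.3 and 249 CPM against 229, 239 and 238 CPM, also overlapping (0.05 ± 0.04), and differed by 0.22 ± 0.04 from water extract 100 (adjusted p = 0.00546). ATF4 acts mainly through its translation and XBP1 and ATF6 through splicing and cleavage, none of which was measured. In the list of ER-associated degradation and translocation genes, 10 of 20 rose and 1 fell against vehicle (median 0.16), and 6 rose without vehicle replicate 3. Set against water extract 100, 2 were higher and against ethanol extract 20, 3, counts that dropped to 0 and 1 without ethanol extract 100 replicate 2, and to 0 or 1 against water extract 100 also without ethanol extract 100 replicate 3 or water extract 100 replicate 1 or 3. Over all genes, 0.926% and 0.837% were higher in those comparisons. EDEM1, which hands misfolded glycoproteins to degradation, had 67.8, 63.1 and 62.1 CPM against 46.4, 47.6 and 46.05 CPM with vehicle (log2 change 0.46 ± 0.06, adjusted p = 1.89e-05). With 58.7 to 61.9 CPM for water extract 100 and 53.4 to 62.3 CPM for ethanol extract 20, those groups also lay above vehicle, and the differences from them of 0.09 ± 0.06 and 0.17 ± 0.06 did not pass. HERPUD1, which scaffolds the degradation complex, had 40.9, 41.7 and 41.3 CPM against 37.3, 33.5 and 35.8 CPM with vehicle, without overlap (log2 change 0.21 ± 0.04, adjusted p = 0.00118). Its difference of 0.20 ± 0.04 from water extract 100 was lost without ethanol extract 100 replicate 2 or 3 or water extract 100 replicate 3 (adjusted p up to 0.118), and it differed by 0.22 ± 0.04 from ethanol extract 20.

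Asparagine synthetase and a part of the serine pathway rose as well. ASNS, whose product makes asparagine from aspartate and glutamine, had 96.2, 94.4 and 96.7 CPM with ethanol extract 100, against 73.2, 75.6 and 72.4 CPM with vehicle. Each group spanned a few CPM and they were far apart (log2 change 0.38 ± 0.04, adjusted p = 7.93e-07). Ethanol extract 20 (72.4 to 73.9 CPM) and water extract 100 (73.4 to 76.3 CPM) were at the vehicle level, so that the differences from them were 0.38 ± 0.04 and 0.36 ± 0.04. NUPR1, a small stress-induced nuclear protein, had 12.1, 13.8 and 12.96 CPM against 8.52, 9.18 and 9.14 CPM with vehicle (log2 change 0.54 ± 0.11, adjusted p = 0.00114), and differed by 0.62 ± 0.11 from water extract 100 and 0.58 ± 0.10 from ethanol extract 20. The calls of ASNS and NUPR1 held when any 1 library was left out.

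Against vehicle, where 8.26% of all genes rose and 9.23% fell, few other effectors of ATF4 and CHOP passed. Of 15 tested, 3 rose against vehicle and 0 fell: NUPR1, TRIB3 (0.19 ± 0.05, lost without ethanol extract 100 replicate 1 or 2 or vehicle replicate 1) and VLDLR (0.26 ± 0.06, lost without vehicle replicate 1). DDIT3 (CHOP) had 7.02, 7.199 and 6.87 CPM against 5.52, 6.62 and 4.64 CPM with vehicle (log2 change 0.34 ± 0.12, adjusted p = 0.062). The list of 15 enzymes of serine, glycine and one-carbon metabolism also held ASNS, which makes asparagine. Of these 15, 6 rose, ASNS among them, and 0 fell against vehicle (median 0.12). Against water extract 100, 2 were higher and against ethanol extract 20, 3, beside 0.926% and 0.837% of all genes. Among them ASNS was the 1 that did not depend on which libraries were kept. With 1 library left out, PHGDH lost its call in 4 of 6 fits in each of these comparisons. PSAT1 lost its call against ethanol extract 20 in 3 of 6. PHGDH, the first enzyme of serine synthesis, had 58.7, 67.4 and 64.6 CPM against 47.9, 54.3 and 45.6 CPM (log2 change 0.37 ± 0.07, adjusted p = 0.000421). PSAT1, the second enzyme, had 201, 203 and 198 CPM against 159, 162 and 151 CPM (0.35 ± 0.05, adjusted p = 5.04e-05), while water extract 100 gave 180.0 to 193 CPM, a difference of 0.11 ± 0.05 that did not pass. Of 12 amino acid transporters, 6 rose against vehicle and 0 fell (median 0.18): SLC7A11 (cystine, 0.33 ± 0.07), its partner SLC3A2 (0.23 ± 0.06), SLC1A5 (glutamine, 0.26 ± 0.04), SLC1A4 (0.32 ± 0.06), SLC38A2 (0.20 ± 0.06) and SLC43A1 (0.39 ± 0.12). The call of SLC38A2 was lost without ethanol extract 100 replicate 1 or vehicle replicate 3 and that of SLC43A1 without ethanol extract 100 replicate 2 or 3 or vehicle replicate 1 or 2. Of the 12, 0 passed against water extract 100 or ethanol extract 20, where 1.77% and 1.79% of all genes passed.

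**Figure D2:**
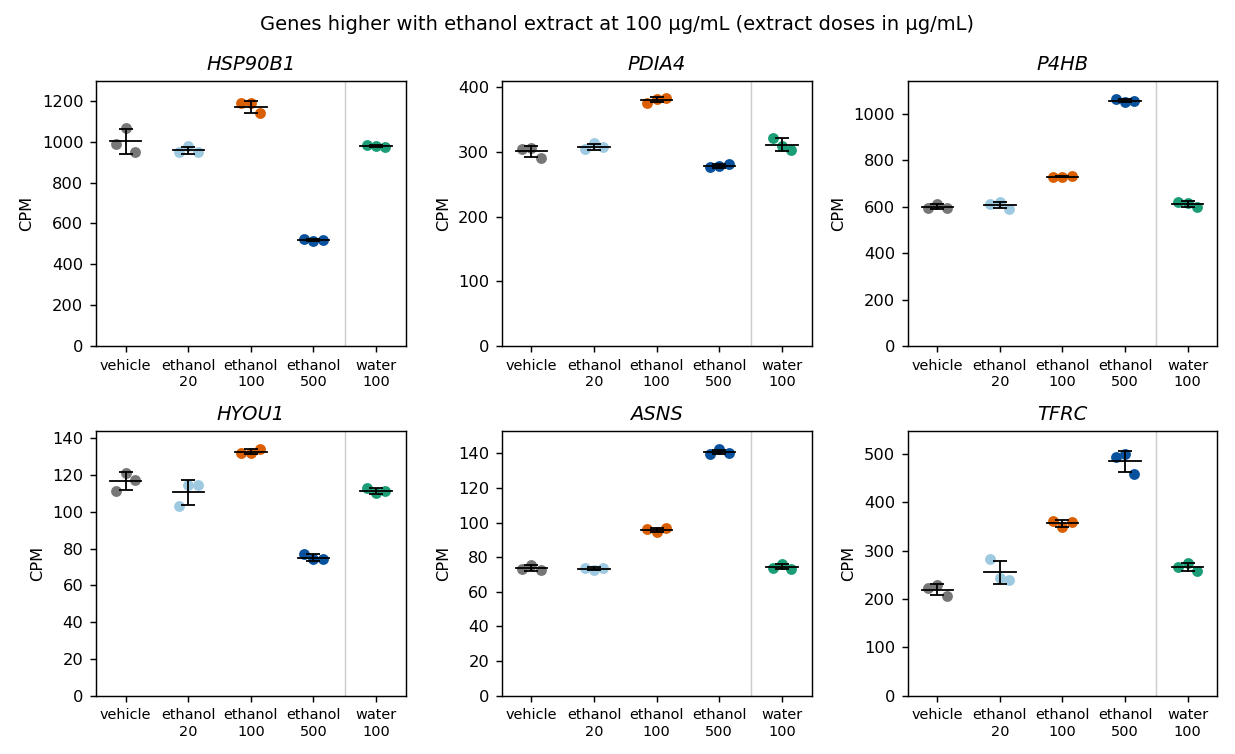
CPM per library (points) with mean and SD (black, n = 3) for vehicle, ethanol extract at 20, 100 and 500 µg/mL and, right of the grey line, water extract at 100 µg/mL. All 3 libraries with ethanol extract 100 lie above those with vehicle, ethanol extract 20 and water extract 100 for all 6 genes, and at 500 µg/mL HSP90B1, PDIA4 and HYOU1 lie below vehicle while P4HB, ASNS and TFRC lie above ethanol extract 100.

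The transferrin receptor had a larger log2 change from vehicle than the genes above. TFRC, the receptor that imports transferrin-bound iron, had 362, 349 and 359 CPM with ethanol extract 100, against 223, 228 and 207 CPM with vehicle. The groups were widely separated, with a log2 change of 0.70 ± 0.06 (adjusted p = 5.73e-08). Ethanol extract 20 gave 239.6 to 282 CPM and water extract 100 257 to 275 CPM, both between those levels, and the differences from them were 0.48 ± 0.06 and 0.42 ± 0.06. SLC40A1 (ferroportin), the exporter of cellular iron, had 37.4, 37.5 and 38.2 CPM against 31.8, 29.3 and 28.9 CPM with vehicle and rose by 0.33 ± 0.05 (adjusted p = 0.000174), with 0.37 ± 0.05 against water extract 100 and 0.37 ± 0.05 against ethanol extract 20. HMOX1, which releases iron from heme, had 108, 113 and 104 CPM against 137, 128 and 128 CPM and fell by 0.27 ± 0.04 on the log2 scale (adjusted p = 0.000171), a difference of -0.26 ± 0.04 from water extract 100 and of -0.15 ± 0.04, not passed, from ethanol extract 20. Of the 11 iron genes tested, 3 rose and 2 fell against vehicle, beside 8.26% and 9.23% of all genes. The others of these were SLC11A2 (0.17 ± 0.04) and NCOA4 (-0.12 ± 0.03, lost without ethanol extract 100 replicate 2 or 3). The ferritin genes FTH1 (-0.12 ± 0.04) and FTL (-0.00 ± 0.05) did not pass. The calls of TFRC and SLC40A1 held with any 1 library left out.

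Targets of TGF-beta and genes of the extracellular matrix were lower with ethanol extract 100. Against vehicle, where 9.23% of all genes fell and 8.26% rose, 13 of 24 fell, 0 rose and 11 did not pass (median log2 change -0.21). Compared with water extract 100, where 0.848% of all genes were lower, 10 were lower and 0 higher (median -0.11), and against ethanol extract 20, where 0.949% were lower, 11 were lower and 0 higher (median -0.15). With 1 library left out, 11 to 15 fell against vehicle, 7 to 9 were lower than with water extract 100 and 6 to 9 lower than with ethanol extract 20, the lowest without ethanol extract 100 replicate 3. Fitted on the 6 libraries alone, 5 were lower than with ethanol extract 20. Without vehicle replicate 1, 1 member rose against vehicle.

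COL4A1, a chain of basement membrane collagen, had 79.3, 78.4 and 77.7 CPM with ethanol extract 100, against 102, 104 and 106 CPM with vehicle. Each group was tight and they did not overlap (log2 change -0.41 ± 0.03, adjusted p = 5.54e-08). Water extract 100 and ethanol extract 20 stood at the vehicle level, with 104 to 105 and 102 to 108 CPM, and the differences from them were -0.41 ± 0.03 and -0.40 ± 0.03. PMEPA1, a TGF-beta target that restrains SMAD signalling, had 343, 353 and 335 CPM against 453, 437 and 454 CPM with vehicle, without overlap (-0.38 ± 0.03, adjusted p = 8.36e-08), and differed by -0.22 ± 0.03 from water extract 100 and by -0.27 ± 0.03 from ethanol extract 20.

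Fibrillar collagens followed. COL5A1 had 209.6, 228 and 203 CPM against 278, 259 and 293 CPM with vehicle and fell by 0.37 ± 0.05 on the log2 scale (adjusted p = 8.71e-06). COL1A1 had 40.7, 44.3 and 40.2 CPM against 57.1, 56.8 and 62.9 CPM, a log2 change of -0.50 ± 0.06 (adjusted p = 1.03e-05). Neither pair of groups overlapped. COL1A1 was also lower than with water extract 100 (-0.35 ± 0.06) and than with ethanol extract 20 (-0.29 ± 0.06), where the call was lost without ethanol extract 100 replicate 1 or 3 or ethanol extract 20 replicate 2. The calls of COL4A1, PMEPA1 and COL5A1 held in all 3 comparisons with any 1 library left out. Other members did not pass against vehicle: fibronectin (FN1, 0.03 ± 0.05), vimentin (VIM, -0.08 ± 0.03), N-cadherin (CDH2, -0.10 ± 0.03) and the inhibitory SMAD7 (-0.03 ± 0.05). TAGLN, an actin-binding protein of smooth muscle, fell by 0.47 ± 0.06 on the log2 scale against vehicle, while its differences of -0.10 ± 0.06 from water extract 100 and -0.12 ± 0.06 from ethanol extract 20 did not pass.

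Upstream of these targets, 1 of 13 ligands, receptors and mediators rose and 4 fell against vehicle, beside 8.26% and 9.23% of all genes. The receptor TGFBR2 rose by 0.16 ± 0.04. The ligand TGFB1 fell by 0.28 ± 0.07 on the log2 scale, a call lost without ethanol extract 100 replicate 1 or vehicle replicate 3. The latent TGF-beta binding proteins LTBP1 (-0.15 ± 0.04), LTBP2 (-0.29 ± 0.05) and LTBP3 (-0.25 ± 0.04) fell, and LTBP1 and LTBP2 were also lower than with water extract 100 (-0.16 ± 0.04 and -0.30 ± 0.05) and ethanol extract 20 (-0.22 ± 0.04 and -0.31 ± 0.05). Inhibitor-of-differentiation genes, which the related bone morphogenetic proteins induce, fell against vehicle for ID2 (-0.40 ± 0.05), ID3 (-0.38 ± 0.04) and ID4 (-0.42 ± 0.07), together with ATOH8 (-0.43 ± 0.09), 4 of 10 genes tested, and ID1 had a log2 change of 0.00 ± 0.05. ID3 had 153, 169.8 and 162 CPM with ethanol extract 100, against 209.8, 209.7 and 211 CPM with vehicle, without overlap. With 167 to 176 CPM, water extract 100 was near ethanol extract 100, and 0 of the 10 passed against it, while 3 were lower than with ethanol extract 20, which a fit of those 6 libraries alone lost. Over all genes, 1.77% passed against water extract 100 and 0.949% were lower than with ethanol extract 20.

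The AP-1 genes JUN and JUNB were lower. JUN, a subunit of the AP-1 factor, had 33.001, 35.03 and 32.5 CPM with ethanol extract 100, against 50.5, 47.7 and 50.8 CPM with vehicle. Water extract 100 (45.3 to 50.8 CPM) and ethanol extract 20 (44.5 to 46.9 CPM) were close to vehicle, and ethanol extract 100 stood below all of them. The log2 change was -0.57 ± 0.05 against vehicle (adjusted p = 6.43e-08), -0.52 ± 0.05 against water extract 100 and -0.45 ± 0.05 against ethanol extract 20, and the calls held with any 1 library left out. JUNB had 98.9, 106 and 100.2 CPM against 135, 125 and 142 CPM with vehicle (-0.40 ± 0.05, adjusted p = 7.64e-06), and its difference of -0.24 ± 0.05 from water extract 100 was lost without ethanol extract 100 replicate 3. Of 19 tested genes of ERK feedback and immediate early response, 7 fell and 1 rose against vehicle (median -0.12), beside 9.23% and 8.26% of all genes. Without ethanol extract 100 replicate 1 or 2 or vehicle replicate 1 or 3, 4 fell. Against water extract 100 and against ethanol extract 20, 2 were lower, JUN and JUNB, and 1 higher, where 1.77% and 1.79% of all genes passed. The 1 that was higher in each comparison was DUSP5, a nuclear phosphatase of ERK (0.23 ± 0.04 against vehicle). Its call against ethanol extract 20 was lost with any of the 6 libraries left out (adjusted p = 0.0523 to 0.171), and that against water extract 100 without water extract 100 replicate 2 (0.0533). FOS had 3.12, 3.56 and 3.73 CPM against 3.71, 3.76 and 3.401 CPM and did not pass (-0.06 ± 0.12).

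**Figure D3:**
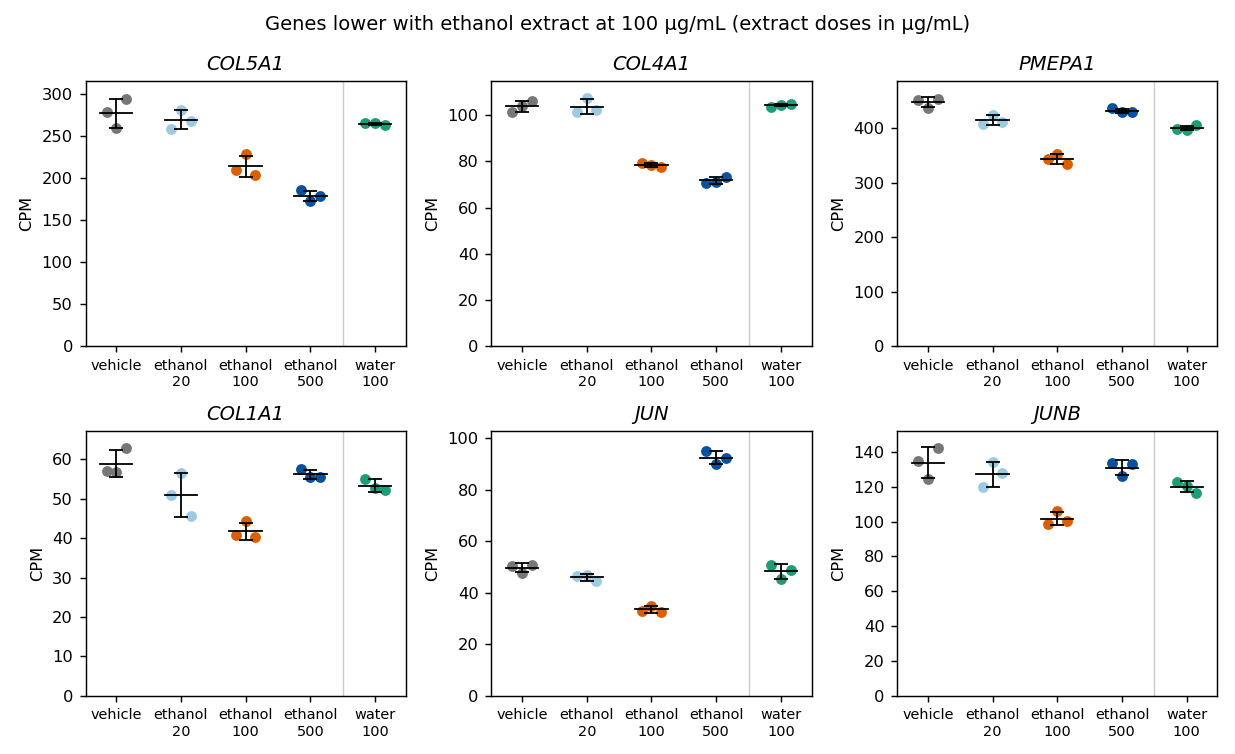
CPM per library (points) with mean and SD (black, n = 3) for 4 TGF-beta targets and 2 AP-1 genes, in the same groups: vehicle, ethanol extract at 20, 100 and 500 µg/mL, and water extract at 100 µg/mL right of the grey line. The 3 libraries with ethanol extract 100 lie below those with vehicle, ethanol extract 20 and water extract 100 for all 6 genes, and at 500 µg/mL JUN, PMEPA1, COL1A1 and JUNB are higher than at 100 µg/mL while COL4A1 and COL5A1 are lower.

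Single genes outside these groups separated ethanol extract 100 from its neighbours as sharply. GABRE, a subunit of the GABA-A receptor, had 149, 143 and 149 CPM with ethanol extract 100, against 87.1, 84.4 and 90.6 CPM with vehicle. The other groups were far lower, with 76.6 to 85.5 CPM for water extract 100, 79.2 to 84.4 CPM for ethanol extract 20 and 100.3 to 106 CPM for ethanol extract 500. The log2 change was 0.75 ± 0.04 (adjusted p = 2.36e-10), with 0.87 ± 0.04 against water extract 100 and 0.84 ± 0.04 against ethanol extract 20. SPACA6, known for its part in the fusion of sperm and egg, had 16.7, 17.1 and 17.2 CPM against 10.6, 10.5 and 9.93 CPM with vehicle (0.71 ± 0.09, adjusted p = 7.97e-06), with 0.92 ± 0.09 against water extract 100 and 0.90 ± 0.09 against ethanol extract 20. In the other direction SDS, serine dehydratase, had 17.2, 16.4 and 13.2 CPM against 23.4, 23.5 and 21.5 CPM with vehicle, without overlap (-0.55 ± 0.08, adjusted p = 0.0001). It was also lower than with water extract 100 (-0.47 ± 0.08) and ethanol extract 20 (-0.52 ± 0.08).

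Secreted proteins were among them. CXCL5, a neutrophil chemokine, had 41.6, 39.5 and 41.6 CPM against 30.9, 31.04 and 28.6 CPM with vehicle (log2 change 0.44 ± 0.06, adjusted p = 2.13e-05), and differed by 0.43 ± 0.06 from water extract 100 and 0.48 ± 0.06 from ethanol extract 20. Complement C3 (0.25 ± 0.05) and the fibrinogen chain FGA (0.28 ± 0.05) rose against vehicle, 2 of 11 acute phase and complement genes, beside 8.26% of all genes. Both were higher than with water extract 100 (0.28 ± 0.05 and 0.19 ± 0.05). The calls of FGA against water extract 100 and of both against ethanol extract 20 were lost when 1 of several libraries was left out, FGA against water extract 100 at adjusted p up to 0.20. EPCAM, an epithelial adhesion molecule, was low and fell, with 2.33, 2.46 and 2.48 CPM against 3.86, 4.41 and 4.83 CPM (-0.84 ± 0.15, adjusted p = 0.000403), and BCL2A1, an antiapoptotic relative of BCL2, had 2.66, 3.64 and 3.14 CPM against 6.35, 6.77 and 5.42 CPM (-0.96 ± 0.14, adjusted p = 4.66e-05). TCF7, a factor of Wnt signalling, fell by 0.53 ± 0.09 on the log2 scale against vehicle. These 3 genes were less clear of the neighbouring groups. EPCAM and BCL2A1 did not pass against ethanol extract 20 in the full fit. Nor did they in fits with any 1 library left out (edgeR adjusted p 0.166 to 0.323 and 0.214 to 0.646). Against water extract 100 the calls of BCL2A1 and TCF7 were each lost in 4 of 6 such fits and that of EPCAM in 1. The call of TCF7 against ethanol extract 20 was lost in 3.

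Of 25 cytosolic heat shock chaperones, 13 fell and 0 rose against vehicle (median -0.14), beside 9.23% and 8.26% of all genes. Against water extract 100, 0 passed, and 1 was lower than with ethanol extract 20, where 1.77% and 1.79% of all genes passed. At such shares a list of this size would hold few passing genes or none. HSPB1, a small heat shock protein, had 436, 489 and 468 CPM with ethanol extract 100, against 626, 694 and 692 CPM with vehicle (log2 change -0.53 ± 0.07, adjusted p = 1.6e-05). Water extract 100 gave 461 to 474 CPM and ethanol extract 20 439 to 555 CPM, so the vehicle libraries were the ones apart. HSP90AB1, the constitutive cytosolic HSP90, had 1735, 1803 and 1748 CPM against 1999, 2189 and 2078 CPM with vehicle (-0.25 ± 0.03), and its difference of -0.06 ± 0.03 from water extract 100 did not pass. The mitochondrial share given above was higher in 2 of the 3 vehicle libraries than in any treated one, and its part in these falls was not tested.

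Mitochondrially encoded genes showed the same pattern, 11 of 13 falling against vehicle (median -0.44) and 0 passing against water extract 100 or ethanol extract 20. Over all genes, 9.23% fell and 8.26% rose against vehicle, and 1.77% and 1.79% passed against water extract 100 and ethanol extract 20. MT-ND4, a subunit of complex I, had 20929, 20666 and 22879 CPM with ethanol extract 100, against 31666, 25241 and 34718 CPM with vehicle (-0.51 ± 0.11, adjusted p = 0.002). The second vehicle library was the lowest of its group and still above all 3 treated ones. Without vehicle replicate 3 the count was 6, without vehicle replicate 1 or ethanol extract 100 replicate 1 or 2 it was 7, and with an offset for transcript length and GC content it was 6. The nuclear-encoded complex III subunit UQCRB had 100.1, 106 and 108 CPM against 134, 152 and 142 CPM (-0.44 ± 0.05, adjusted p = 3.28e-06), with 98.7 to 104 CPM for water extract 100. Of 24 ribosome biogenesis genes 11 fell and 1 rose against vehicle, among them nucleolin (NCL, -0.37 ± 0.06) and nucleophosmin (NPM1, -0.37 ± 0.06), and 1 passed against water extract 100 and 0 against ethanol extract 20. Metallothionein MT2A, which binds zinc and copper, fell by 0.46 ± 0.06 on the log2 scale and differed by -0.10 ± 0.06 from water extract 100, which did not pass. Of 27 NRF2 targets 10 rose and 2 fell against vehicle (median 0.09), with 6 rising without vehicle replicate 3, among them the efflux pump ABCC2 (0.25 ± 0.03) and SLC7A11 (above). With water extract 100 as the comparison, 2 were higher and 1 lower, and the 2 were lost without ethanol extract 100 replicate 2 or 3 or water extract 100 replicate 2 or 3.

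**Figure D4:**
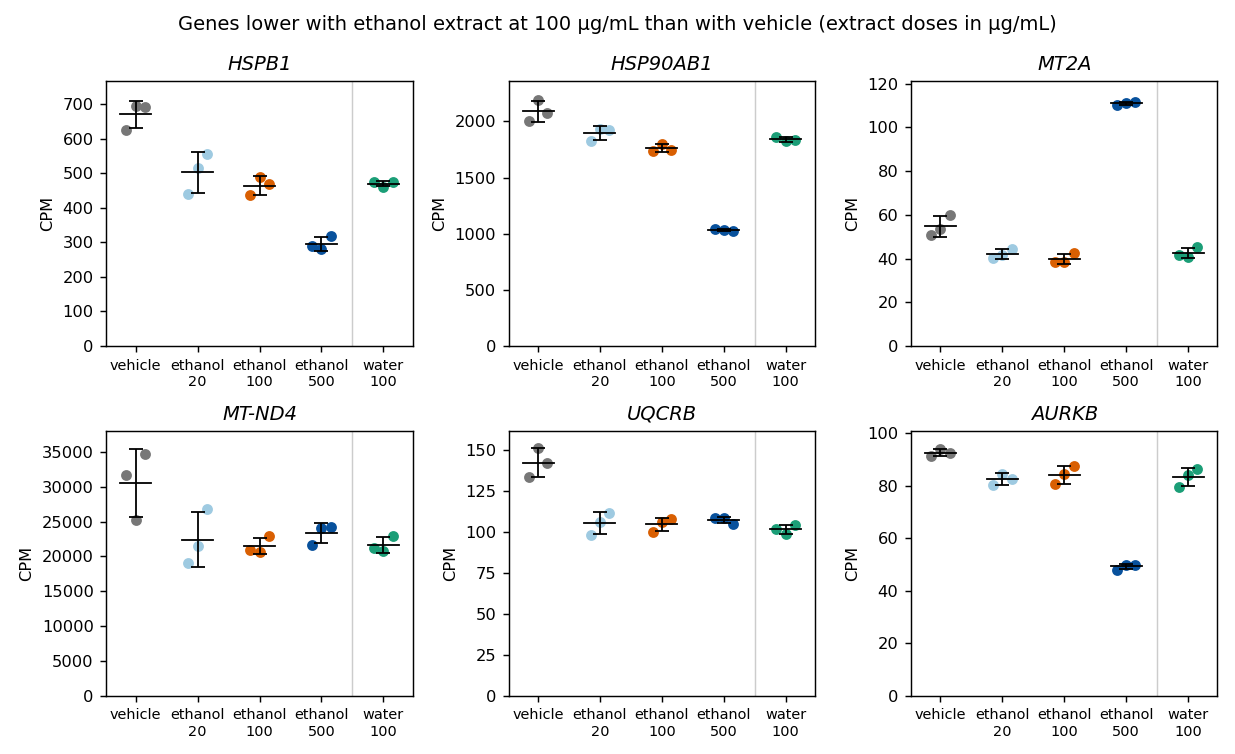
CPM per library (points) with mean and SD (black, n = 3) for 6 genes that were lower with ethanol extract 100 than with vehicle, in the groups vehicle, ethanol extract at 20, 100 and 500 µg/mL, and water extract at 100 µg/mL right of the grey line. Ethanol extract 20 and water extract 100 are near ethanol extract 100 for all 6 genes, with HSPB1 at 439 to 555 and 461 to 474 CPM and vehicle alone at 626 to 694 CPM.

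AURKB (Aurora B), the kinase of the chromosomal passenger complex, had 80.5, 84.6 and 87.4 CPM with ethanol extract 100, against 91.5, 93.8 and 92.6 CPM with vehicle. The groups did not overlap but lay close, and the log2 change of -0.14 ± 0.04 passed (adjusted p = 0.0147). That call was lost without ethanol extract 100 replicate 1 (adjusted p = 0.093), in a fit of the 6 libraries alone (0.063) and without the filter on low counts (0.071). Water extract 100 gave 79.7 to 86.5 CPM and ethanol extract 20 80.1 to 84.5 CPM, with differences from them of 0.01 ± 0.04 and 0.03 ± 0.04. INCENP (0.05 ± 0.05), BIRC5 (survivin, -0.03 ± 0.04) and CDCA8 (borealin, 0.04 ± 0.05), its partners in the complex, did not pass against vehicle. Their 95% intervals of the log2 change were -0.06 to 0.15, -0.11 to 0.05 and -0.05 to 0.14.

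Of 40 genes of mitosis and the G2/M phase, 11 fell and 1 rose against vehicle, beside 9.23% and 8.26% of all genes, with a median of -0.03, and 8 or 9 fell with 1 library left out. Against water extract 100, 1 was lower and 1 higher, and against ethanol extract 20, 1 was higher, where 1.77% and 1.79% of all genes passed. The largest fall was PTTG1 (securin), with 85.6, 93.4 and 95.9 CPM against 118, 134 and 116 CPM (-0.42 ± 0.06, adjusted p = 6.94e-05), and water extract 100 gave 87.2 to 97.7 CPM. CDC25B, a phosphatase that activates CDK1, was the 1 that rose, with 358, 382 and 373 CPM against 309, 331 and 329.9 CPM (0.20 ± 0.04, adjusted p = 0.000693). It was also the 1 that was higher than with water extract 100 (0.28 ± 0.04) and than with ethanol extract 20 (0.25 ± 0.04). Cyclin B1 (CCNB1, 0.00 ± 0.04) and topoisomerase II alpha (TOP2A, -0.01 ± 0.04), both high in dividing cells, did not pass. Of 40 replication and G1/S genes 2 rose and 3 fell, and of 25 p53 targets 2 rose and 1 fell, beside the same shares of all genes.

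By size of change, the genes with the largest differences from vehicle were weakly expressed. KANTR, a long noncoding RNA, had 1.08, 0.855 and 1.28 CPM with ethanol extract 100, against 0.355, 0.1505 and 0.04595 CPM with vehicle (log2 change 2.44 ± 0.48, adjusted p = 0.00123). Ethanol extract 20 (0.585 to 1.44 CPM) and water extract 100 (0.662 to 1.202 CPM) resembled ethanol extract 100. RN7SL1, the RNA of the signal recognition particle, whose many copies make its counts uncertain, had 3.87, 27.3 and 4.23 CPM against 1.58, 2.36 and 3.45 CPM, 1 treated library being far above the others, and its call was lost without that library or without vehicle replicate 1. OTOF (otoferlin, 1.23 ± 0.31), CHRNA7 (a nicotinic receptor subunit with a fused duplicate gene, so uncertain, 1.11 ± 0.21), CSF2RA (a cytokine receptor chain, 1.07 ± 0.24) and ABCG1 (a sterol exporter, 0.96 ± 0.16) followed among the rises. The other large rises were TMEFF1 (1.05), the zinc finger genes ZNF879 (0.95) and ZNF483 (0.86) and CDRT1 (0.94), of which TMEFF1 and ZNF483 did not pass without some 1 library.

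Among the falls the chorionic gonadotropin gene CGB8, one of several near-identical copies and therefore uncertain, had 0.333, 0.891 and 0.543 CPM against 1.54, 1.304 and 2.25 CPM (-1.49 ± 0.34, adjusted p = 0.00356). R3HDML (-1.26 ± 0.27), POLN (DNA polymerase nu, -0.99 ± 0.21), CRYAB (a small heat shock protein, -0.93 ± 0.17), WDR63 (-0.96 ± 0.25) and KLHL31 (-0.91 ± 0.29) also fell, the last pair not without some 1 library, as did VIL1 and ALOX5AP (-1.20 ± 0.37 and -1.19 ± 0.32), whose calls were lost without ethanol extract 100 replicate 1, and VIL1 also without ethanol extract 100 replicate 3 or vehicle replicate 2 and ALOX5AP without vehicle replicate 3. Against water extract 100 the largest differences were MUC2 (1.47 ± 0.36), DEFB1 (1.22 ± 0.32) and CSF2RA (1.04 ± 0.24) upwards and TSSK3 (-1.36 ± 0.34), GYLTL1B (-1.06 ± 0.22) and POLN (-0.87 ± 0.21) downwards. Each of these 6 was lost when some 1 library was left out. Against ethanol extract 20 they were CXCL8 (0.92 ± 0.23), SPACA6 and GABRE upwards and R3HDML (-1.23 ± 0.27), GYLTL1B (-0.92 ± 0.22) and SCNN1B (-0.82 ± 0.20) downwards, of which SPACA6 and GABRE held throughout.

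The change from vehicle was related to transcript length. The 16733 genes with a known length (99.3% of those tested) were cut into 5 equal classes with median lengths of 1138, 2240, 3260, 4597 and 7218 bases, and from the shortest to the longest class the median log2 change against vehicle was -0.05, -0.03, -0.01, 0.01 and 0.06. In the shortest class 127 genes rose and 403 fell, and in the longest 603 rose and 174 fell. Against water extract 100 the class medians lay between -0.02 and 0.01, and against ethanol extract 20 between -0.01 and 0.01. The part that length or RNA quality plays in the changes from vehicle was not tested. With an offset for length and GC content, 1266 genes rose and 1763 fell against vehicle, with 14 of the 26 ER chaperones among the rises and 14 of the 24 TGF-beta targets among the falls.

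**Figure D5:**
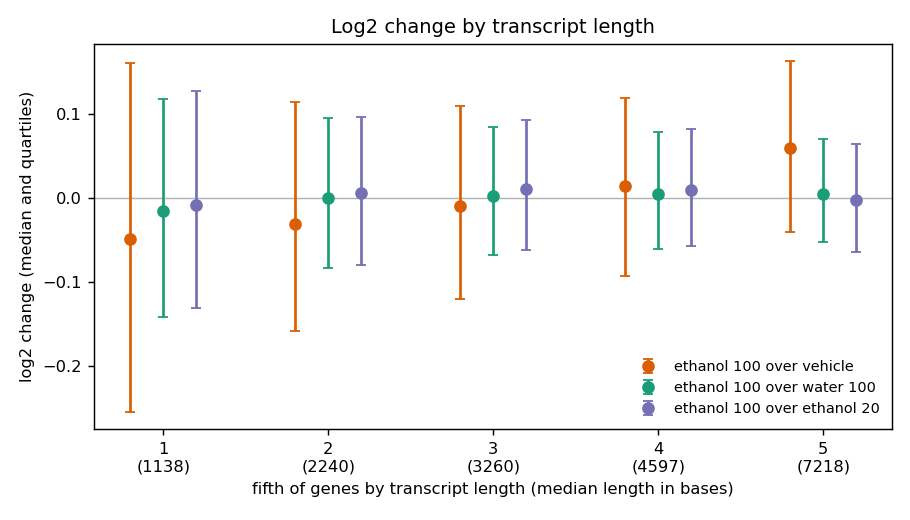
Median log2 change (points) with lower and upper quartile (bars) in 5 equal classes of the tested genes by transcript length, with the median length of each class in bases below the axis. The median climbs with length for ethanol extract 100 over vehicle, -0.05 in the shortest and 0.06 in the longest class, and stays within 0.02 of 0 over water extract 100 and ethanol extract 20.

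At the next dose up some of these genes went the other way, and others changed further in the same direction. Against ethanol extract 100, ethanol extract 500 differed in 11093 of the genes tested (65.8%), 5504 higher (32.7%) and 5589 lower (33.2%), and 2232 (13.2%) at least 2-fold. ER chaperones split, 9 of 26 being higher and 13 lower at 500 µg/mL. HSP90B1 had 524, 516 and 521 CPM with ethanol extract 500, a log2 difference of -1.17 ± 0.04 from ethanol extract 100, and HSPA5, HYOU1, CALR and PDIA4 were lower too (-0.69 ± 0.04, -0.82 ± 0.04, -0.46 ± 0.04 and -0.45 ± 0.03). P4HB was higher, with 1062, 1050.4 and 1054 CPM (0.54 ± 0.03), as were HERPUD1 (1.11 ± 0.04) and ASNS (0.56 ± 0.04). With 1 library left out, the log2 differences lay between 0.80 and 0.90 for DNAJB9 and between 0.87 and 0.95 for EDEM1. For ERN1 they lay between 1.06 and 1.18 and for EIF2AK3 between 0.99 and 1.04. Of 10 sensors and factors of the unfolded protein response 6 were higher and 3 lower. Of 20 degradation and translocation genes 14 were higher and 2 lower, and of 25 heat shock chaperones 3 and 21. Of the ATF4 and CHOP effectors, 13 of 15 were higher at 500 µg/mL, DDIT3 by 1.29 ± 0.10 and TRIB3 by 1.85 ± 0.05.

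TGF-beta targets differed in both directions: 11 of 24 were higher and 8 lower at 500 than at 100 µg/mL (median 0.04). Over all genes, 32.7% were higher and 33.2% lower. PMEPA1 reached 437, 429 and 429.8 CPM with ethanol extract 500 (0.33 ± 0.03), JUN reached 94.9, 90.1 and 92.5 CPM (1.46 ± 0.04), and the ERK feedback list was higher for 17 of 19 genes. COL4A1 (-0.13 ± 0.03) and COL5A1 (-0.26 ± 0.05) were lower still. AURKB, with 48.03, 49.8 and 49.9 CPM at 500 µg/mL (-0.77 ± 0.04), and its partners INCENP (-0.63 ± 0.05), BIRC5 (-0.69 ± 0.04) and CDCA8 (-0.87 ± 0.05) were lower than at 100 µg/mL, as were 38 of the 40 mitotic genes. TFRC was higher (0.44 ± 0.06) and SLC40A1 lower (-0.67 ± 0.05). GABRE and SPACA6, highest at 100 µg/mL, were lower at 500 µg/mL (-0.52 ± 0.04 and -0.49 ± 0.08). The muscle factor MYOD1, with no count in the 3 libraries of ethanol extract 100, was at least 604-fold higher with ethanol extract 500, against a floor of 3 counts over the group.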

How the data were processed

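RNA of A549 cells was sequenced in 96 libraries. Per the labels' protocols, libraries were made with a kit that keeps strand (MGIEasy RNA Directional). The deposited matrix holds expected counts per gene, which the authors made with RSEM 1.3.3 and STAR on hg38/GRCh38 after Trim Galore, per the submitters' processing notes. The annotation release, the treatment of multi-mapped reads and any use of strand in counting are not stated in the sources used here, so near-identical copies and overlapping or antisense genes are uncertain. Of the deposited values 89.9% were whole, and expected counts were rounded. All 21 libraries of the batch were fitted together (7 groups, residual df 14) with edgeR 4.0.16 (R 4.3.3): filterByExpr left 16854 of 60675 genes, TMM scaling, quasi-likelihood test, Benjamini-Hochberg adjustment over all genes tested, threshold 0.05. Totals in the batch were 17.93 to 28.14 M counts. Intervals cover the spread between libraries only, and floors counting error only. No pair of the 210 pairs of libraries held identical values.

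The members and gene lists were chosen with earlier results of these data known. Named genes are the 10 largest rises and falls against vehicle and the 3 largest each way in the other comparisons among called genes averaging 1 CPM or more in either group, with no overlap between the 3 libraries of each (clones, pseudogenes, antisense and readthrough genes passed over), the 4 genes of the chromosomal passenger complex, up to 4 members of each list, and lists of up to 12 members whole. The up to 4 members of a list were those called against vehicle with the smallest edgeR p, so they are not typical of it. HSPA5, HSP90B1, CALR, HYOU1, DNAJB9, COL1A1, TAGLN, CCNB1, TOP2A, SLC7A11 and other list members outside this rule were chosen after their values were seen. Transcript lengths and GC content were taken from GENCODE release v29 and may differ from those the authors used. Alternatives were DESeq2 size factors, mitochondrial genes left out, no filter, a stricter filter, a replicate block, a fit of 6 libraries, DESeq2 1.42.0 and each library left out; the offset for length and GC content was chosen after seeing the data. On simulated counts for ethanol extract 100 against vehicle (16561 genes), the test recovered 58, 86, 90 and 100% of 50 genes each changed 1.2-, 1.5-, 2- and 4-fold, with 8 false calls. The changed genes averaged above 1 CPM, and all groups otherwise shared the same means. No shift in mitochondrial share or with transcript length was simulated, so these rates may not hold in the real comparison. No column of values was left without a sample. Some genes picked by the naming rule are not reported here.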

Additional observations from a re-analysis of the deposited data

How the results depend on the processing

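Of the 2947 changes from vehicle, 103 reached 2-fold. Of the 3 vehicle libraries, 2 had a higher mitochondrial share than any treated one, and the change from vehicle followed transcript length; neither can be told apart from treatment in that comparison. The count of 2947 genes against vehicle was 2116 in a fit of the 6 libraries and 2572 to 3022 with other settings, 3029 with the length and GC offset, and 1908 to 2949 with 1 library left out, the lowest without ethanol extract 100 replicate 1. These were not all the same genes. Of the 2947, 2390 also passed in the same direction with the offset, 2456 without the filter and 2017 in the fit of 6 libraries. With 1 library left out, 1829 to 2340 of them did. The 299 genes against water extract 100 became 451 with the replicate block, 300 to 437 with other settings and 121 to 187 with any 1 library left out. The 301 genes against ethanol extract 20 became 480 without the filter, 516 with the replicate block, 78 in a fit of the 6 libraries, 494 with the offset and 128 to 375 with 1 library left out. The 11093 genes between ethanol extract 500 and 100 stayed between 10286 and 11459, and 10497 to 10654 with 1 library left out. The cause of these differences was not tested. The replicate block gave 3629 genes against vehicle. Same-numbered libraries of ethanol extract 100 and vehicle were hardly correlated (0.018, 0.04 and 0.073), so the numbers gave no sign of pairing these groups. Pairing of ethanol extract 100 with water extract 100 or ethanol extract 20 was not tested. In each treated group of the batch, replicate 3 had the highest mitochondrial share. Of 438 calls of named genes in the 4 comparisons, 318 passed in the same direction in every setting in which they were tested, and 0 reversed. Leaving out an ethanol extract 100 replicate lost 61, 61 and 63 of 438. Of the 438, 171 were between ethanol extract 500 and 100, where leaving out an ethanol extract 500 replicate lost 5 to 8. Leaving out a vehicle replicate lost 12 to 19 of 160 calls against vehicle. Losses were 12 to 22 of 53 without a water extract 100 replicate, most without replicate 3, and 7 to 15 of 54 without an ethanol extract 20 replicate. The fit of 6 libraries lost 53 of 437, no filter 22, DESeq2 and the offset 15 each, and the block 0.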

Other observations

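Of 14 tested enzymes of fatty acid synthesis, 3 were lower and 0 higher with ethanol extract 100 than with water extract 100 (median log2 difference -0.09), 5 were lower and 0 higher than with ethanol extract 20 (median -0.06), and 3 fell and 2 rose against vehicle (median -0.05). Over all genes, 0.848% were lower than with water extract 100 and 0.949% than with ethanol extract 20, and 9.23% fell and 8.26% rose against vehicle. FASN, the fatty acid synthase, had 355, 377 and 364 CPM with ethanol extract 100, against 429.7, 424 and 432 CPM with water extract 100, a difference of -0.23 ± 0.04 (edgeR adjusted p = 0.00109). The vehicle libraries, with 364 to 388 CPM, overlapped ethanol extract 100, and the log2 change from them was -0.03 ± 0.04. ACLY, which supplies cytosolic acetyl-CoA, differed by -0.15 ± 0.03 from water extract 100 and -0.17 ± 0.03 from ethanol extract 20, with -0.07 ± 0.03 against vehicle. FADS2, a desaturase of polyunsaturated fatty acids, was lower in all 3 comparisons, with -0.20 ± 0.04 against vehicle, -0.15 ± 0.04 against water extract 100 and -0.22 ± 0.04 against ethanol extract 20. Its call against water extract 100 was lost whichever of the 6 libraries was left out (adjusted p = 0.0858 to 0.188). These genes were picked out after their values were seen, and the counts of this list were not recomputed under other settings.

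The counts of other lists against vehicle stand beside 8.26% of all genes that rose and 9.23% that fell. Of 28 targets of the hypoxia factors 4 rose and 4 fell (median 0.05), of 25 cholesterol synthesis genes 2 rose and 4 fell (median 0.00), of 19 YAP and TEAD targets 4 rose and 4 fell (median -0.03), and of 40 cytosolic ribosomal proteins 7 rose and 6 fell (median 0.02). Of 31 proteasome subunits 1 rose and 3 fell, of 35 nuclear-encoded respiratory chain genes 4 rose and 3 fell, of 20 cytosolic tRNA synthetases 4 rose and 6 fell, of 19 interferon stimulated genes 2 rose, and of 7 tested targets of the aryl hydrocarbon receptor 3 rose and 2 fell. Among the proteasome, respiratory chain, ribosomal protein and interferon lists, 0 genes passed against water extract 100 or ethanol extract 20. Over all genes the same edgeR test called 299 and 301 in those comparisons. CRIM1, a transmembrane protein of the YAP list that binds bone morphogenetic proteins, was higher in all 3, with 0.26 ± 0.03 against vehicle, 0.20 ± 0.03 against water extract 100 and 0.12 ± 0.03 against ethanol extract 20, where the call was lost in 5 of 6 fits with 1 library left out (adjusted p up to 0.219). EGLN1, the prolyl hydroxylase that marks hypoxia factors for degradation, was lower in all 3, with -0.22 ± 0.04, -0.18 ± 0.04 and -0.20 ± 0.04 in the same order. Its call against water extract 100 was lost without ethanol extract 100 replicate 2 or 3 or water extract 100 replicate 2 (adjusted p up to 0.0851).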
